A study of Mus musculus with 10 samples.

Results

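RNA seq libraries of microglia from N-AS-injected APP/PS1 mice (3 libraries) were compared with those from WT mice (3 libraries), to describe what still differed from WT after treatment across all genes. Members were chosen by group label, which takes 6 of the 10 libraries in the series, and the other 4 come from untreated APP/PS1 mice, whose values are set beside where they help. APP/PS1 mice carry the transgenes of that line, among them human amyloid precursor protein with the Swedish mutation (hAPP695swe), and WT mice carry none. N-AS is N-acetyl sphingosine, which APP/PS1 mice received under the skin at 30 mg/kg daily for 8 weeks from the age of 7 months. Untreated APP/PS1 mice received vehicle, no vehicle is stated for the WT mice, and all mice were 9 months old and are stated to be male. Cortex was dissociated with papain and microglia were separated on a density gradient without a sort, so that cells of other types could remain. RNA from 2 mice was pooled for each library, which makes the pool the replicate, and the reads were counted per gene.

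Microglia are the resident macrophages of the brain. In tissue with amyloid plaques they take on a disease-associated state, in which homeostatic genes are low and genes for lipid handling, lysosomal breakdown and phagocytosis are high. Part of that state needs TREM2, a lipid-sensing receptor at the cell surface that signals through the adaptor TYROBP.

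Total counts were 8805804, 17102559 and 19133654 in WT 1, 2 and 3 and 16500725, 19035817 and 12755933 in N-AS 1, 2 and 3. Expression is given as CPM, the read count scaled to a common library size, and log2 CPM of 2 libraries correlated across genes with r of 0.930 to 0.954 among WT and 0.969 to 0.985 among N-AS libraries. WT 1 stood apart, since it had the lowest total but the fewest genes without a read, 566 against 3305 and 1013 in WT 2 and 3. Tyms, which makes thymidylate for DNA synthesis, had 1086, 351 and 442 CPM in WT 1, 2 and 3 and 349.7, 348 and 461 in N-AS 1, 2 and 3. Cxcr2, a chemokine receptor of neutrophils, had 111, 43 and 44.1 CPM in the WT and 39.7, 36.9 and 50.1 in the N-AS libraries. In both genes WT 1 lay above all other libraries compared.

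Sex-linked transcripts went against the stated sex in N-AS 1 and 2 and in all 4 APP/PS1 libraries. Xist, the RNA that silences an X chromosome in females, had 37, 37 and 33 reads in WT 1, 2 and 3 and 7024, 8848 and 29 reads in N-AS 1, 2 and 3. The sum of 4 Y-linked genes was 177, 197 and 178 CPM in the WT libraries and 31.0, 45.7 and 176 CPM in the N-AS libraries. N-AS 1 and 2 therefore held Xist reads together with fewer Y-linked reads, and N-AS 3 resembled WT in both. The untreated APP/PS1 libraries, which add to the estimate of spread and whose values are set beside, held 5253, 5831, 8477 and 11188 Xist reads and 42.7, 57.0, 0.888 and 0.619 CPM of the Y-linked genes. Of the 5 sex-linked genes, 0 were called by edgeR, 1 was higher at unadjusted p (Xist, 6.89 ± 1.39 on the log2 scale, adjusted p = 0.117) and the list's median was −1.01. Because of this, results are also given for N-AS 3 alone and for each library left out. With the summed Y-linked level in the model, of which the groups explained 55.4%, 15 of the 35 genes called below were called, all 35 kept their direction, and the 33 higher genes had a median log2 fold change of 1.69, beside 1.85 without that term.

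As a check on the cell label, 14 microglial markers were read in each library. Their mean log2 CPM was 5.29, 5.46 and 5.88 in WT 1, 2 and 3, 6.78, 6.89 and 6.35 in N-AS 1, 2 and 3, and 7.20, 7.28, 7.59 and 7.48 in the APP/PS1 libraries. Every N-AS library therefore held more marker RNA than every WT library and less than every APP/PS1 library, with a mean difference of 1.13 on the log2 scale from WT. Summed over the list, the markers took 957, 1114 and 1456 CPM in WT and 2710.4, 2918 and 2099 CPM in N-AS libraries, and Ctss was the most abundant. In bulk RNA, a larger number of microglia and more RNA per microglial cell cannot be told apart. Of the 14 markers, 2 rose (Tyrobp and Fcer1g), 12 were higher at unadjusted p and the median log2 fold change was 1.16. P2ry12, a purine receptor of homeostatic microglia, had 61.8, 65.6 and 90.5 CPM in WT and 65, 73 and 88.4 CPM in N-AS libraries. Tmem119, another homeostatic marker, had 20.6, 23 and 31.6 CPM in WT and 30.6, 34.4 and 25.4 CPM in N-AS libraries. Both of these markers overlapped between the groups.

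Transcripts of other brain cells were abundant in every library, so the libraries do not hold RNA of microglia alone, and no unfractionated sample is there to measure enrichment. The 15 neuronal markers summed to 9494, 10917 and 11991 CPM in WT 1, 2 and 3 and 10512, 8863 and 10044 CPM in N-AS 1, 2 and 3, led by the long noncoding RNA Meg3. The 12 oligodendrocyte markers summed to 7091, 7225 and 2507 CPM in WT and 3954, 4065 and 2978 CPM in N-AS libraries. For the 12 astrocyte markers, the sums were 4307, 4882 and 3844 CPM in WT and 4327, 4433 and 5899 CPM in N-AS libraries. Summed neuronal, oligodendrocyte and astrocyte levels all overlapped between the groups. Each of these lists exceeded the summed microglial markers in every WT and N-AS library. Of the 3 lists, oligodendrocyte markers varied most within WT, where WT 3 was the low library.

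After N-AS, genes that remained higher than in WT included cathepsins, Fc receptors, members of TREM2 signalling and chemokine ligands, while few genes were called lower. Differential expression was tested with edgeR on 18727 genes and adjusted by the Benjamini-Hochberg method, and a gene is called where the adjusted p is under 0.05. In all, 35 genes were called, which is 0.187% of the genes tested. Of these, 33 rose (0.176%) and 2 fell (0.0107%), and the N-AS and WT libraries did not overlap in CPM for any of the 35. Rose and fell stand throughout for a call against WT, and not for a change from untreated APP/PS1. At unadjusted p under 0.05, 682 genes were higher (3.64%) and 579 were lower (3.09%). Libraries did not overlap for 917 genes with N-AS higher (4.9%) and for 733 genes with N-AS lower (3.91%). Because only 0.187% of genes were called, 0 called genes in a list of at most 40 members does not set that list apart. The median log2 fold change over all genes was −0.04, with 8207 genes (43.8%) above 0. The 33 genes that rose had a median log2 fold change of 1.85 (range 1.03 to 5.62). In 28 further genes, all higher, the adjusted p lay between 0.05 and 0.1.

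The number of genes called depended on the tool and on single libraries. DESeq2 called 188 genes, including all 35, and edgeR on library numbers 1 to 6 alone called 437, again including all 35. With edgeR the number was 5 without WT 1, 1 without WT 2, 57 without WT 3, 3 without N-AS 1, 2 without N-AS 2 and 116 without N-AS 3. Fitting the N-AS and WT libraries alone, without the APP/PS1 libraries that add to the estimate of spread, left Cst7 and Galnt3. Cst7 was called in all 6 fits that left out a library. Trem2, Tyrobp, Cd68, Ctsd, Ctsz and Fcgr3 were each called in 2 of these 6 fits. Their calls were lost when WT 1, WT 2, N-AS 1 or N-AS 2 was left out. When libraries were blocked by replicate number, 5 genes were called, among them Cst7, Galnt3, Ccl3 and Ccl4. All 35 genes kept their direction in each of these fits. With the marker mean in the model as a covariate, chosen after seeing the data, edgeR called 0 genes, with 589 at unadjusted p. The 33 higher genes then had a median log2 fold change of 0.741, beside 1.85 without that term. The groups explained 92.9% of that covariate.

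N-AS 3 was the lowest N-AS library for all 33 genes that rose. Its CPM was a median of 0.583 of the mean of N-AS 1 and 2 over these genes (range 0.247 to 0.786), against 1.00 over all genes tested. N-AS 3 alone against WT gave a median log2 fold change of 1.23 for the 33 genes and 2 genes called. Library numbers in the labels run from 1 to 10, and N-AS 1 and 2 with WT 1 and 2 lie in numbers 1 to 6, N-AS 3 and WT 3 in 7 to 10. Since the groups did not overlap for the 33 genes, their direction within library numbers was already fixed, and only the sizes are given. Within numbers 1 to 6 the median log2 difference of N-AS from WT was 2.10 and the lowest value 1.17. Within numbers 7 to 10, where each group has 1 library, the median was 1.10 and the lowest value 0.69. Sex-linked reads, library number and microglial marker level differed between N-AS 3 and the other N-AS libraries together, so their parts cannot be told apart.

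**Figure D1:**
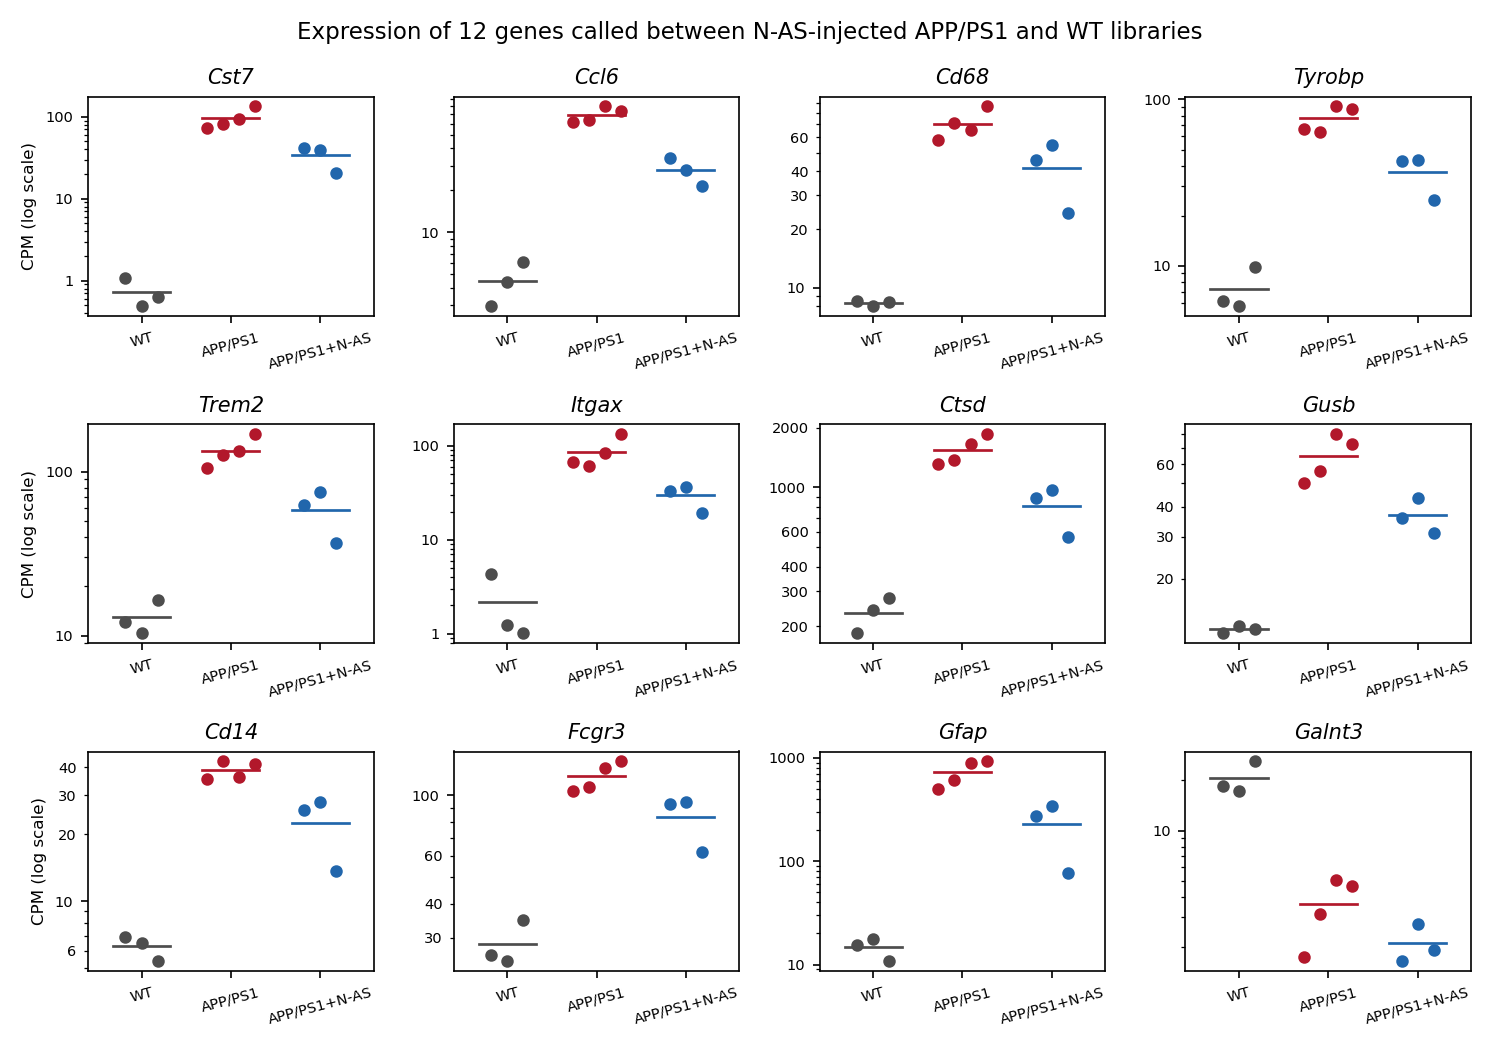
CPM on a log scale for 12 called genes, with a dot for each library and a bar at the mean of WT (grey), APP/PS1 (red) and APP/PS1+N-AS (blue). In 11 panels every N-AS library lies above every WT library, as for Cst7 at 20.7 to 41.6 against 0.495 to 1.07 CPM, and for Galnt3 every N-AS library lies below.

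Cst7 had the lowest adjusted p. It encodes cystatin F, an inhibitor of lysosomal cysteine proteases and a marker of disease-associated microglia, and lies at chr2:150570415-150578944 (GRCm38, plus strand). Its level was 1.07, 0.495 and 0.627 CPM in WT 1, 2 and 3 and 41.6, 38.9 and 20.7 CPM in N-AS 1, 2 and 3. WT libraries held very little Cst7, and all N-AS libraries were far above them. Cst7 rose by 5.62 ± 0.41 (SE) on the log2 scale (adjusted p = 0.000607, higher in 3 of 3 libraries), and N-AS 3 alone gave 4.91 (adjusted p = 0.00733). In untreated APP/PS1 it was 72.7, 81.1, 94.6 and 134 CPM, with a log2 fold change of 7.13 from the same WT libraries.

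Trem2 and its adaptor remained above WT. Trem2 had 12.1, 10.3 and 16.6 CPM in WT 1, 2 and 3 and 62.3, 75 and 36.8 CPM in N-AS 1, 2 and 3. Tyrobp, which carries the signalling motif for TREM2, had 6.18, 5.76 and 9.79 CPM in WT and 42.6, 43 and 25 CPM in N-AS libraries. For both genes the lowest N-AS library, N-AS 3, was still above the highest WT library, WT 3. Trem2 rose by 2.15 ± 0.29 (adjusted p = 0.0187) and Tyrobp by 2.33 ± 0.28 (adjusted p = 0.0160) on the log2 scale. Lat2, an adaptor downstream of immune receptors, had 3.45, 2.66 and 4.87 CPM in WT and 12, 13.9 and 8.64 CPM in N-AS libraries. Lat2 rose by 1.64 ± 0.27 (adjusted p = 0.0479). Of 17 genes of TREM2-TYROBP signalling, these 3 rose, 14 were higher at unadjusted p and the median was 0.78.

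Of 40 disease-associated genes, in the longest of the lists, 10 rose, 28 were higher at unadjusted p and the median log2 fold change was 1.17, beside 2.23 for untreated APP/PS1 against the same WT libraries. Itgax, the CD11c integrin chain, had 4.28, 1.24 and 1.01 CPM in WT 1, 2 and 3 and 33.1, 36.9 and 19.5 CPM in N-AS 1, 2 and 3. WT 1 was the high WT library for Itgax, and the groups did not overlap. Itgax rose by 3.96 ± 0.52 (adjusted p = 0.0187). It was called in 3 of the 6 fits that left out a library and not without WT 2, N-AS 1 or N-AS 2, with log2 fold changes of 3.60 to 4.73 and adjusted p up to 0.127. Cd68, a glycoprotein of phagocyte lysosomes, had 8.56, 8.05 and 8.39 CPM in WT and 45.8, 55 and 24.3 CPM in N-AS libraries and rose by 2.33 ± 0.27 (adjusted p = 0.0160). Lyz2, which encodes the lysozyme of myeloid cells, had 16.9, 17.1 and 13.6 CPM in WT and 73.7, 73.4 and 40.6 CPM in N-AS libraries and rose by 1.98 ± 0.28 (adjusted p = 0.0238). Levels of both in the N-AS libraries lay well above the narrow WT range.

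Other well-known genes of that state did not pass the test. Apoe, which encodes the main apolipoprotein of the brain, had 613, 761 and 589.8 CPM in WT and 1539, 1691 and 1311 CPM in N-AS libraries, with a log2 fold change of 1.21 ± 0.31 (adjusted p = 0.282). Spp1, which encodes osteopontin, had 21.9, 23.8 and 12.1 CPM in WT and 45.5, 52.3 and 45.4 CPM in N-AS libraries (1.32 ± 0.33, adjusted p = 0.255). Clec7a, a receptor for beta-glucans, had 13.8, 7.49 and 5.54 CPM in WT and 32.1, 29.5 and 16.4 CPM in N-AS libraries (1.58 ± 0.34, adjusted p = 0.150). In these genes every N-AS library exceeded every WT library, so the groups were apart although the adjusted p was above 0.05. Lilrb4a, an inhibitory receptor, lay just outside the threshold with 7.01, 2.54 and 1.88 CPM in WT and 26.2, 28.2 and 11.2 CPM in N-AS libraries (2.63 ± 0.45, adjusted p = 0.0593). Without WT 1 it was called, and the log2 fold change of Lilrb4a was 3.32 (adjusted p = 0.0307).

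Among the proteases of the lysosome, 3 cathepsins rose. Ctsd, the aspartic protease cathepsin D, had 185, 241 and 279 CPM in WT 1, 2 and 3 and 881, 970.2 and 562 CPM in N-AS 1, 2 and 3 and rose by 1.78 ± 0.26 (adjusted p = 0.0256). Ctsz, a carboxypeptidase, had 22, 26.1 and 28.3 CPM in WT and 102, 112 and 60.9 CPM in N-AS libraries and rose by 1.85 ± 0.23 (adjusted p = 0.0187). Both genes were higher in each N-AS library than in any WT library. Ctsl, a cysteine protease, rose by 1.29 ± 0.19 (adjusted p = 0.0238), and Ctss, which trims the MHC class II invariant chain, was higher by 1.74 ± 0.31 without passing the test (adjusted p = 0.0699). Ctss had 166, 198 and 299 CPM in WT and 811, 865 and 542 CPM in N-AS libraries. Of 13 cathepsins, 3 rose, 9 were higher at unadjusted p and the median was 0.79.

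Other lysosomal lists held 1 called gene each. Of 32 other lysosomal hydrolases, 1 rose, 14 were higher at unadjusted p and the median was 0.36. That gene was Gusb, the beta-glucuronidase that degrades glycosaminoglycans, with 11.9, 12.7 and 12.4 CPM in WT and 36, 43.4 and 31.2 CPM in N-AS libraries (1.58 ± 0.20, adjusted p = 0.0187). WT libraries were tightly grouped for Gusb and all N-AS libraries were above them. Of 25 genes for lysosomal membrane, transport and activators, Cd68 was the 1 that rose, 8 were higher at unadjusted p and the median was 0.15. Slc15a3, a peptide and histidine transporter of endolysosomes that is in none of these lists, had 3.21, 3.03 and 4.44 CPM in WT and 13, 11.6 and 7.98 CPM in N-AS libraries and rose by 1.60 ± 0.22 (adjusted p = 0.0197).

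Some receptors for antibody and complement also rose. Fcgr3, an activating IgG receptor, had 26, 24.8 and 34.9 CPM in WT 1, 2 and 3 and 92.8, 94.2 and 61.8 CPM in N-AS 1, 2 and 3 and rose by 1.54 ± 0.20 (adjusted p = 0.0187). Fcer1g, the signalling chain that activating Fc receptors share, had 5.94, 7.74 and 9.11 CPM in WT and 23.6, 28 and 15.1 CPM in N-AS libraries and rose by 1.53 ± 0.23 (adjusted p = 0.0312). Fcgr2b, the inhibitory IgG receptor, had 10.9, 11.1 and 14.3 CPM in WT and 35.7, 41.3 and 28.5 CPM in N-AS libraries and rose by 1.53 ± 0.25 (adjusted p = 0.0463). For these 3 genes every N-AS library lay above every WT library. Of 7 Fc receptor genes these 3 rose, 5 were higher at unadjusted p and the median was 0.93. C3ar1, the receptor for the complement fragment C3a, had 20.1, 18 and 17.9 CPM in WT and 46.6, 43 and 32.3 CPM in N-AS libraries and rose by 1.13 ± 0.15 (adjusted p = 0.0187). Of 20 complement genes, C3ar1 and Itgax rose, 8 were higher at unadjusted p and the median was 0.47.

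Genes of innate sensing and of the oxidative burst followed with smaller counts. Cd14, the co-receptor that hands lipopolysaccharide to TLR4, had 6.89, 6.50 and 5.40 CPM in WT and 25.6, 28 and 13.7 CPM in N-AS libraries and rose by 1.85 ± 0.25 (adjusted p = 0.0187). It was the 1 of 17 Toll-like receptors and partners that rose, with 7 higher and 1 lower at unadjusted p and a median of 0.27. Cyba, the membrane subunit p22phox of the phagocyte NADPH oxidase, had 4.75, 3.71 and 4.72 CPM in WT and 15, 15.5 and 9.60 CPM in N-AS libraries and rose by 1.61 ± 0.23 (adjusted p = 0.0238). N-AS 3 was the low library in both genes and still lay above all WT libraries. Of 6 oxidase subunits, Cyba rose, 4 were higher at unadjusted p and the median was 1.00. Hvcn1, a proton channel that supports the oxidase, had 10.7, 9.78 and 11 CPM in WT and 23.5, 22.8 and 18 CPM in N-AS libraries and rose by 1.03 ± 0.16 (adjusted p = 0.0404).

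Among chemokine ligands, 3 of 20 rose. Ccl6, a chemokine of myeloid cells, had 2.97, 4.40 and 6.12 CPM in WT 1, 2 and 3 and 34, 28.1 and 21.5 CPM in N-AS 1, 2 and 3 and rose by 2.59 ± 0.25 (adjusted p = 0.00593). It was called in 5 of the 6 fits that left out a library, and without WT 2 its adjusted p was 0.0548. Ccl3, a chemokine of activated macrophages, had 6.18, 5.45 and 3.95 CPM in WT and 24.2, 29.1 and 11.8 CPM in N-AS libraries and rose by 2.09 ± 0.34 (adjusted p = 0.0415). Ccl4, a close relative of Ccl3, had 4.16, 4.89 and 3.47 CPM in WT and 17.9, 17 and 9.09 CPM in N-AS libraries and rose by 1.82 ± 0.27 (adjusted p = 0.0256). These 3 genes lie within one cluster on chromosome 11, and their WT and N-AS libraries did not overlap. Over the 20 ligands 5 were higher at unadjusted p and the median was 0.09. Of 17 chemokine receptors, edgeR called 0, with 3 higher and 2 lower at unadjusted p and a median of −0.30.

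Among cytokine and interferon genes 1 was called. Over all genes tested, 0.187% were called and 3.64% were higher at unadjusted p. Of 26 cytokine and inflammasome genes, edgeR called 0, with 11 higher and 1 lower at unadjusted p and a median of 0.57. One member, Tgfbr2, a receptor for TGF-beta, had 85.1, 96 and 57 CPM in WT and 122, 131 and 96.9 CPM in N-AS libraries (0.56 ± 0.22, adjusted p = 0.663). Of 33 interferon-stimulated genes 1 rose, 2 were higher at unadjusted p and the median was 0.23. That gene was Ifi204, which encodes a DNA sensor, with 1.66, 3.22 and 1.98 CPM in WT and 15.5, 13.4 and 7.17 CPM in N-AS libraries (2.37 ± 0.38, adjusted p = 0.0407). The other 32 interferon-stimulated genes did not pass.

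Lists of antigen presentation held no called gene. Cd74, the MHC class II invariant chain, had 18.7, 20.6 and 13.4 CPM in WT and 41.9, 49.9 and 23.3 CPM in N-AS libraries (1.14 ± 0.48, adjusted p = 0.692). H2-Ab1, a class II chain that presents peptides, had 7.73, 7.24 and 5.54 CPM in WT and 11.5, 12.2 and 5.32 CPM in N-AS libraries. The groups overlapped for H2-Ab1, where N-AS 3 was below all WT libraries, and did not overlap for Cd74. Of 10 MHC class II genes, edgeR called 0, with 2 higher at unadjusted p and a median of 0.53, beside 1.75 for untreated APP/PS1 against WT. Of 19 genes for MHC class I and peptide loading, edgeR called 0, with 0 at unadjusted p and a median of 0.20. Cd83, a surface protein of activated antigen-presenting cells, was called higher than in WT (1.41 ± 0.22, adjusted p = 0.0403). It had 13.1, 15.9 and 15 CPM in WT and 43.7, 48.8 and 24.5 CPM in N-AS libraries.

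**Figure D2:**
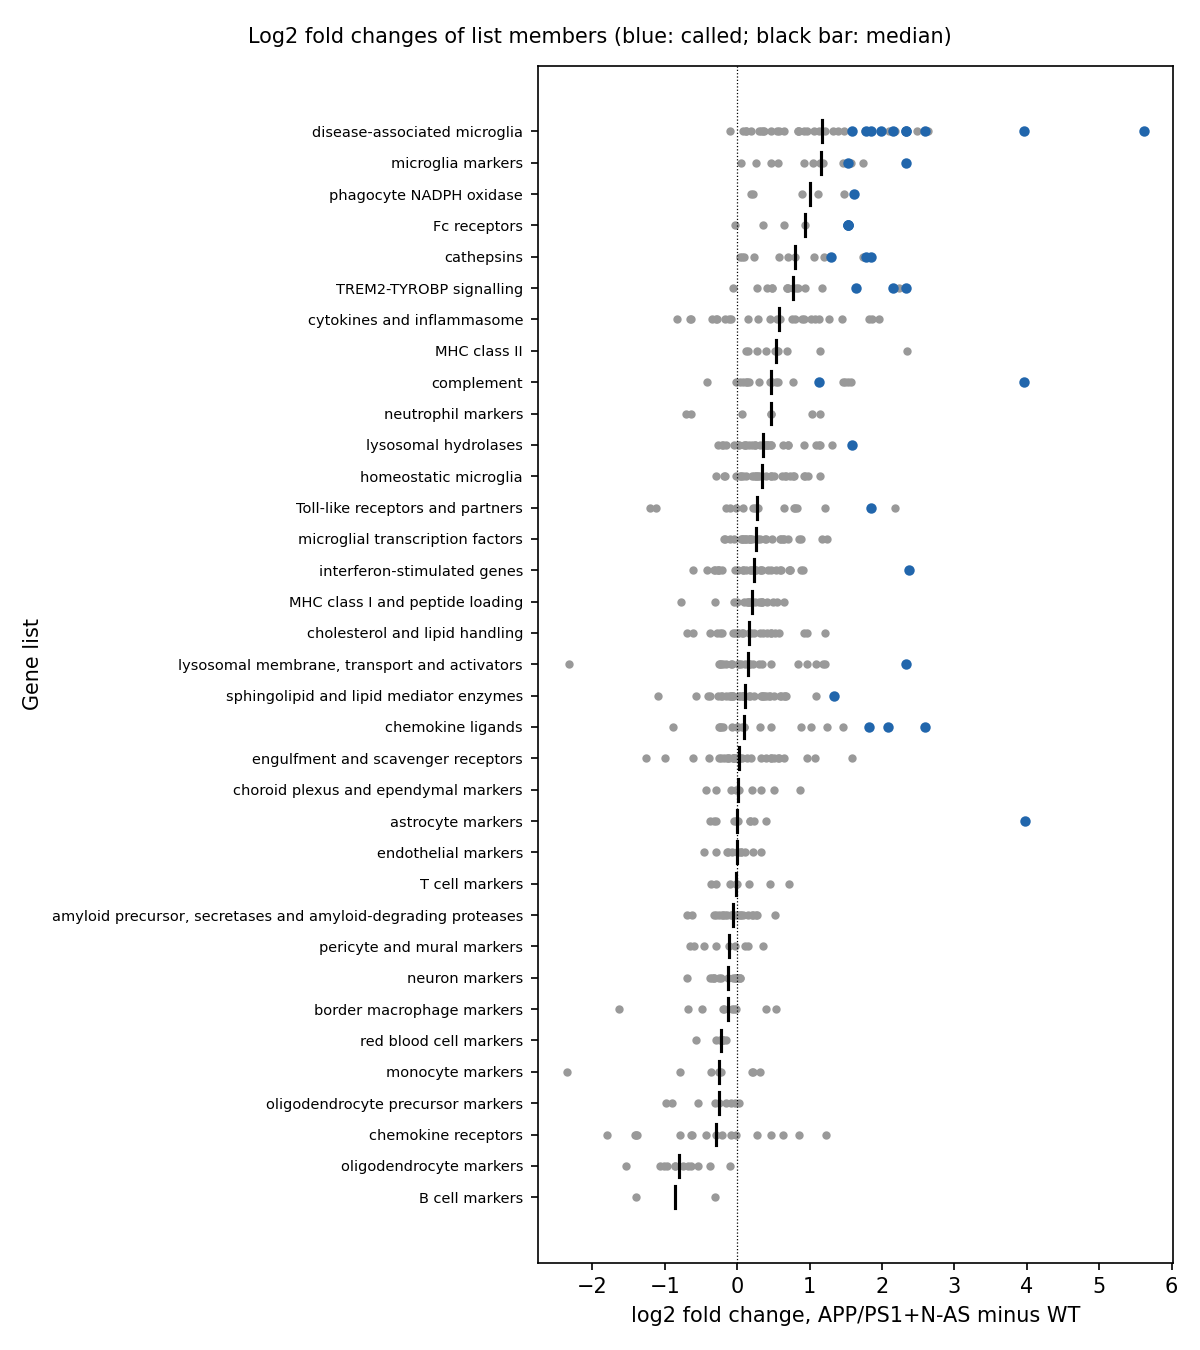
Log2 fold changes, APP/PS1+N-AS minus WT, of the tested members of each list, with called genes in blue, other genes in grey and the list's median as a black bar. Among these lists of programs and cell type markers, disease-associated microglia have the highest median at 1.17, beside 1.16 for microglia markers. B cell markers (−0.85, 2 genes tested) and oligodendrocyte markers (−0.80) have the lowest.

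No gene of the homeostatic list was called, where 0.187% of all genes tested were called and 3.64% were higher at unadjusted p. Of 29 homeostatic genes, edgeR called 0, with 12 higher and 0 lower at unadjusted p. Their median was 0.35, beside 0.50 for untreated APP/PS1 against the same WT libraries. Cx3cr1, the fractalkine receptor, had 119.7, 132 and 147 CPM in WT and 179, 205 and 169 CPM in N-AS libraries (0.47 ± 0.15, adjusted p = 0.484). Csf1r, the receptor on which microglial survival depends, had 159, 182 and 243 CPM in WT and 380.2, 417 and 303 CPM in N-AS libraries (0.92 ± 0.20, adjusted p = 0.163). Both receptors were above WT in all N-AS libraries, and the log2 fold change of Csf1r was −0.08 with the marker mean as a covariate. Of 29 microglial transcription factors, edgeR called 0, with 10 higher at unadjusted p and a median of 0.26. The most abundant of them, Mef2c, a MADS box factor, had 247, 292 and 582 CPM in WT and 286, 312 and 403 CPM in N-AS libraries, where WT 3 was highest and the groups overlapped.

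Among lipid genes 1 was called. Of 25 genes for cholesterol and lipid handling, edgeR called 0, with 4 higher and 1 lower at unadjusted p and a median of 0.16. Lpl, which hydrolyses triglycerides, had 2025, 2329.7 and 506 CPM in WT and 2827, 2262 and 1134 CPM in N-AS libraries, and the groups overlapped. Of 37 sphingolipid and lipid mediator enzymes, which include those that form and degrade sphingosine, 1 rose, 10 were higher and 1 was lower at unadjusted p, and the median was 0.10. The gene that rose was Tbxas1, the thromboxane synthase, with 6.54, 8.92 and 9.74 CPM in WT and 22.5, 23.7 and 18.2 CPM in N-AS libraries (1.34 ± 0.21, adjusted p = 0.0353). Of 22 cholesterol synthesis genes, edgeR called 0, with 0 at unadjusted p and a median of −0.08.

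Lists of engulfment and of amyloid processing held no called gene, where 0.187% of all genes tested were called. At unadjusted p 3.64% of all genes were higher, and 4.9% had N-AS above WT without overlap. Of 31 engulfment and scavenger receptors, edgeR called 0, with 8 higher at unadjusted p, 7 with N-AS above WT without overlap, and a median of 0.03 from 16 members above 0 and 15 below. Axl, a receptor that binds dying cells through bridging proteins, had 67.4, 82.7 and 40.8 CPM in WT and 111, 101 and 72.8 CPM in N-AS libraries (0.58 ± 0.25, adjusted p = 0.699). Axl overlapped between the groups, since N-AS 3 lay below WT 2. Of 23 genes for amyloid precursor, secretases and amyloid-degrading proteases, edgeR called 0, with 0 at unadjusted p and a median of −0.06. App had 1406, 1707 and 1753 CPM in WT and 1371, 1350.2 and 1512 CPM in N-AS libraries. The N-AS libraries lay within or below the WT range for App, and whether reads from the human transgene were counted under the mouse symbol was not tested.

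Genes named by the study for these samples are not independent evidence of their direction. Of its 8 inflammatory genes, Itgax rose, 7 were higher at unadjusted p and the median was 1.26, beside 2.43 for untreated APP/PS1. Csf1, a growth factor for microglia, had 27.3, 31.9 and 16.1 CPM in WT and 48.7, 56 and 31 CPM in N-AS libraries (0.85 ± 0.26, adjusted p = 0.457), with N-AS 3 below WT 2. Ccl2, a monocyte chemoattractant, had 2.61, 1.86 and 1.25 CPM in WT and 1.91, 1.80 and 1.92 CPM in N-AS libraries (0.01 ± 0.31, adjusted p = 0.997), and its sign turned with the scaling. Of 5 homeostatic genes, edgeR called 0, with 0 at unadjusted p and a median of −0.55, beside −1.11 for untreated APP/PS1. They include Cidea, a lipid droplet protein, at 0.832, 1.24 and 1.21 CPM in WT and 0.264, 0.424 and 0.813 CPM in N-AS libraries (−1.14 ± 0.60, adjusted p = 0.768), which did not overlap. Fa2h, which hydroxylates fatty acids for myelin lipids, had 24.6, 26.1 and 10.7 CPM in WT and 11.7, 16 and 9.68 CPM in N-AS libraries (−0.71 ± 0.38, adjusted p = 0.773), with WT 3 within the N-AS range. The transcription factor Neurod1 gave −0.55 ± 0.33, the erythropoietin receptor Epor −0.36 ± 0.59 and the copper transporter Atp7b −0.20 ± 0.42 on the log2 scale.

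Of the 6 genes that the study connects with phagocytosis, edgeR called 0 between N-AS and WT, with 1 higher at unadjusted p and a median of 0.06, beside −0.53 for untreated APP/PS1 against the same WT libraries. Adam8, a membrane metalloprotease, had 7.96, 6.50 and 3.13 CPM in WT and 13.2, 8.85 and 8.13 CPM in N-AS libraries (0.80 ± 0.31, adjusted p = 0.657). Its groups did not overlap, with N-AS 3 only slightly above WT 1. Log2 fold changes were 0.17 ± 0.29 for Rap1gap, an inactivator of the GTPase Rap1, and −0.39 ± 0.20 for Megf10, an engulfment receptor of astrocytes. Tub had 0.06 ± 0.23, the RNA-binding protein gene Mex3b 0.07 ± 0.24 and the endosomal adaptor gene Appl2 −0.07 ± 0.14. For these last 5 genes the N-AS libraries overlapped the WT libraries.

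Other genes that rose have roles in myeloid cells outside the groups above. Mpeg1, which encodes the pore-forming protein perforin-2, had 25.7, 31.6 and 38.9 CPM in WT and 139, 145 and 90.3 CPM in N-AS libraries and rose by 1.96 ± 0.27 (adjusted p = 0.0197). Plek, a substrate of protein kinase C, had 38.6, 37.8 and 34.5 CPM in WT and 109, 112 and 65.6 CPM in N-AS libraries and rose by 1.37 ± 0.19 (adjusted p = 0.0220). Neither overlapped, and both were lowest in N-AS 3 among N-AS libraries. Gpr65, a proton-sensing receptor, had 1.31, 1.11 and 0.675 CPM in WT and 5.86, 6.36 and 3.18 CPM in N-AS libraries and rose by 2.37 ± 0.33 (adjusted p = 0.0220). Rasal3, a Ras GTPase-activating protein of blood cells, rose by 1.25 ± 0.18 (adjusted p = 0.0256). The anti-apoptotic relatives Bcl2a1b and Bcl2a1d rose by 2.08 ± 0.29 (adjusted p = 0.0220) and 2.35 ± 0.37 (adjusted p = 0.0404). Their sequences are much alike, and whether reads were shared between them was not tested.

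The called genes include a marker of astrocytes. Gfap, the intermediate filament of astrocytes that is high in gliosis, had 15.6, 17.6 and 10.9 CPM in WT 1, 2 and 3 and 277, 340.2 and 76.2 CPM in N-AS 1, 2 and 3 and rose by 3.98 ± 0.51 (adjusted p = 0.0187). N-AS 3 was far below N-AS 1 and 2 yet above all WT libraries, and the APP/PS1 libraries had 499, 617, 899.8 and 923 CPM. It was the 1 of 12 astrocyte markers that rose, and their median of 0.00 turned to −0.00 and −0.01 under other scalings. Serpina3n, a protease inhibitor made by reactive astrocytes among other cells, had 2.38, 2.10 and 3.13 CPM in WT and 15.2, 23.4 and 6.43 CPM in N-AS libraries and rose by 2.55 ± 0.42 (adjusted p = 0.0485). The untreated APP/PS1 libraries had 9.58, 11.6, 12.8 and 17.1 CPM of Serpina3n, within the N-AS range.

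The 2 genes that fell are in none of the lists. Galnt3, which starts mucin-type O-glycosylation of proteins, lies at chr2:66082766-66124994 (minus strand). It had 18.5, 17.4 and 26 CPM in WT 1, 2 and 3, 1.65, 2.76 and 1.92 CPM in N-AS 1, 2 and 3 and 1.73, 3.14, 5.06 and 4.62 CPM in the APP/PS1 libraries. All N-AS libraries were far below WT and overlapped with untreated APP/PS1. Galnt3 had a log2 fold change of −3.28 ± 0.37 (adjusted p = 0.0160, lower in 3 of 3 libraries). Trim59, a ubiquitin ligase of the TRIM family at chr3:69035288-69044755 (minus strand), had 13.1, 13.2 and 9.02 CPM in WT and 4.41, 4.13 and 4.95 CPM in N-AS libraries and a log2 fold change of −1.38 ± 0.20 (adjusted p = 0.0256). The groups were apart for Trim59 as well, and the APP/PS1 libraries had 4.83, 4.30, 3.69 and 4.90 CPM. Neighbouring genes, chosen after these values were seen, did not pass the test. Csrnp3, 51220 bases from Galnt3, had a log2 fold change of −0.51 (adjusted p = 0.702), and Smc4, 665 bases from Trim59, had 0.28 (adjusted p = 0.863).

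A log2 fold change of at least 1 was found for 236 genes, 33 of them called, and one of −1 or lower for 1179 genes, 2 of them called. In 1115 of those 1179 genes WT 1 was the highest of the 6 libraries. Without WT 1, 409 genes lay at −1 or lower and 521 at 1 or higher. WT 1 therefore carried most of the large negative fold changes. Numbers at 1 or higher and at −1 or lower were 145 and 176 among genes with at least 10 counts in every library, and 470 and 477 with limma-voom after quantile normalization, which changes model and scaling together. Scaling alone left them at 232 and 1175 (RLE), 215 and 1160 (total counts) and 216 and 1210 (upper quartile). Within 0.5 of 0 on the log2 scale lay 82.2% of the genes, and the median SE was 0.25.

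Markers of further cell types are given by list. Of 12 oligodendrocyte markers, edgeR called 0, with 5 lower at unadjusted p and a median of −0.80, beside −1.31 for untreated APP/PS1. Oligodendrocyte precursor markers (9 tested) had 0 called, 2 lower at unadjusted p, a median of −0.25 and sums of 219, 227 and 139 CPM in WT and 152, 148 and 153 CPM in N-AS libraries. Of the 15 neuronal markers edgeR called 0, with 0 at unadjusted p and a median of −0.12. For vessels, 12 endothelial markers (led by Flt1) and 9 pericyte and mural markers (led by Myh11) had 0 called and 0 at unadjusted p, with medians of −0.00 and −0.11. The endothelial median was 0.03 when scaled by total counts. Endothelial markers summed to 1663, 2089 and 722 CPM in WT and 1524, 1763 and 1473 CPM in N-AS libraries, and mural markers to 1738, 2118 and 539 and 1046, 1107 and 1309 CPM. WT 3 was low in both.

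Choroid plexus RNA varied strongly between the libraries of each group. The 10 choroid plexus and ependymal markers summed to 446, 443 and 35.1 CPM in WT 1, 2 and 3 and 650.4, 864 and 43.8 CPM in N-AS 1, 2 and 3. Ttr, the transthyretin gene that leads this list, had 373, 373 and 1.74 CPM in WT and 583, 783 and 0.665 CPM in N-AS libraries. WT 3 and N-AS 3, the libraries with numbers 7 and 10, held almost none. Of the list edgeR called 0, with 0 at unadjusted p, and its median of 0.02 was −0.01 under upper-quartile scaling.

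Lists of blood cell and macrophage markers held no called gene. The 8 red blood cell markers, led by Hba-a2, summed to 2992, 3481 and 2727 CPM in WT and 2609, 3578 and 1709 CPM in N-AS libraries, with 0 called, 0 at unadjusted p and a median of −0.22. Border macrophage markers (10 tested, led by Stab1) had 0 called, 1 higher at unadjusted p, a median of −0.13 and sums of 106, 109 and 89.6 CPM in WT and 105, 119.9 and 121 CPM in N-AS libraries. Monocyte markers (9 tested, led by Fn1) had 0 called, 0 at unadjusted p, a median of −0.25 and sums of 837, 967 and 555 CPM and 923, 1055 and 693 CPM. The ranges of these lists overlapped between N-AS and WT. Neutrophil markers (7 tested, led by Cxcr2) had 0 called, 0 at unadjusted p, a median of 0.47 and sums of 125, 53.1 and 49.997 CPM and 52.6, 57.5 and 57.2 CPM. T cell markers (8 tested, led by Cd3d) had 0 called, 0 at unadjusted p, a median of −0.02 and sums of 113, 103 and 49.8 CPM and 111, 103 and 71.4 CPM. Of 5 B cell markers 2 were tested, led by Ms4a1, with 0 called, 1 lower at unadjusted p, a median of −0.85 and sums of 4.04, 2.29 and 1.01 CPM and 1.71, 1.33 and 0.960 CPM. The monocyte gene Plac8 had no reads in N-AS 1 and 3.

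Lists for the state of the tissue gave no calls. Of 26 immediate early and heat shock genes, which respond to dissociation, edgeR called 0, with 0 at unadjusted p and a median of 0.12. Hspa8, a constitutive chaperone, had 1016, 1121 and 1879.9 CPM in WT and 1342, 1481 and 1271 CPM in N-AS libraries, and WT 3 was the highest. Of 28 cell cycle genes, edgeR called 0, with 2 higher at unadjusted p and a median of 0.03. Pcna, the sliding clamp of DNA replication, had 22, 27.1 and 23.5 CPM in WT and 25.2, 28.8 and 20.2 CPM in N-AS libraries, and the groups overlapped.

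For most genes that rose, the N-AS libraries lay between WT and untreated APP/PS1. Both comparisons share the WT libraries, so their values are only set side by side. Against WT, the 33 genes had a median log2 fold change of 2.65 in untreated APP/PS1 (range 1.5 to 7.13) and of 1.85 after N-AS. Every N-AS library was below every APP/PS1 library in 29 of the 33, while this held for 1209 genes of all tested (6.46%). The APP/PS1 libraries held 5253 to 11188 Xist reads and N-AS 3 held 29, so sex-linked reads also differed between the libraries ordered here, and their part was not tested. The difference itself was not called, since edgeR called 0 genes when N-AS libraries were compared with APP/PS1 libraries, with 1653 at unadjusted p. After subtraction of the mean microglial marker difference from WT of 1.13, the list medians were 0.07 for disease-associated genes, −0.41 for TREM2-TYROBP signalling, −0.34 for cathepsins and −0.77 for homeostatic genes. Group and microglial marker level cannot be told apart in these libraries.

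**Figure D3:**
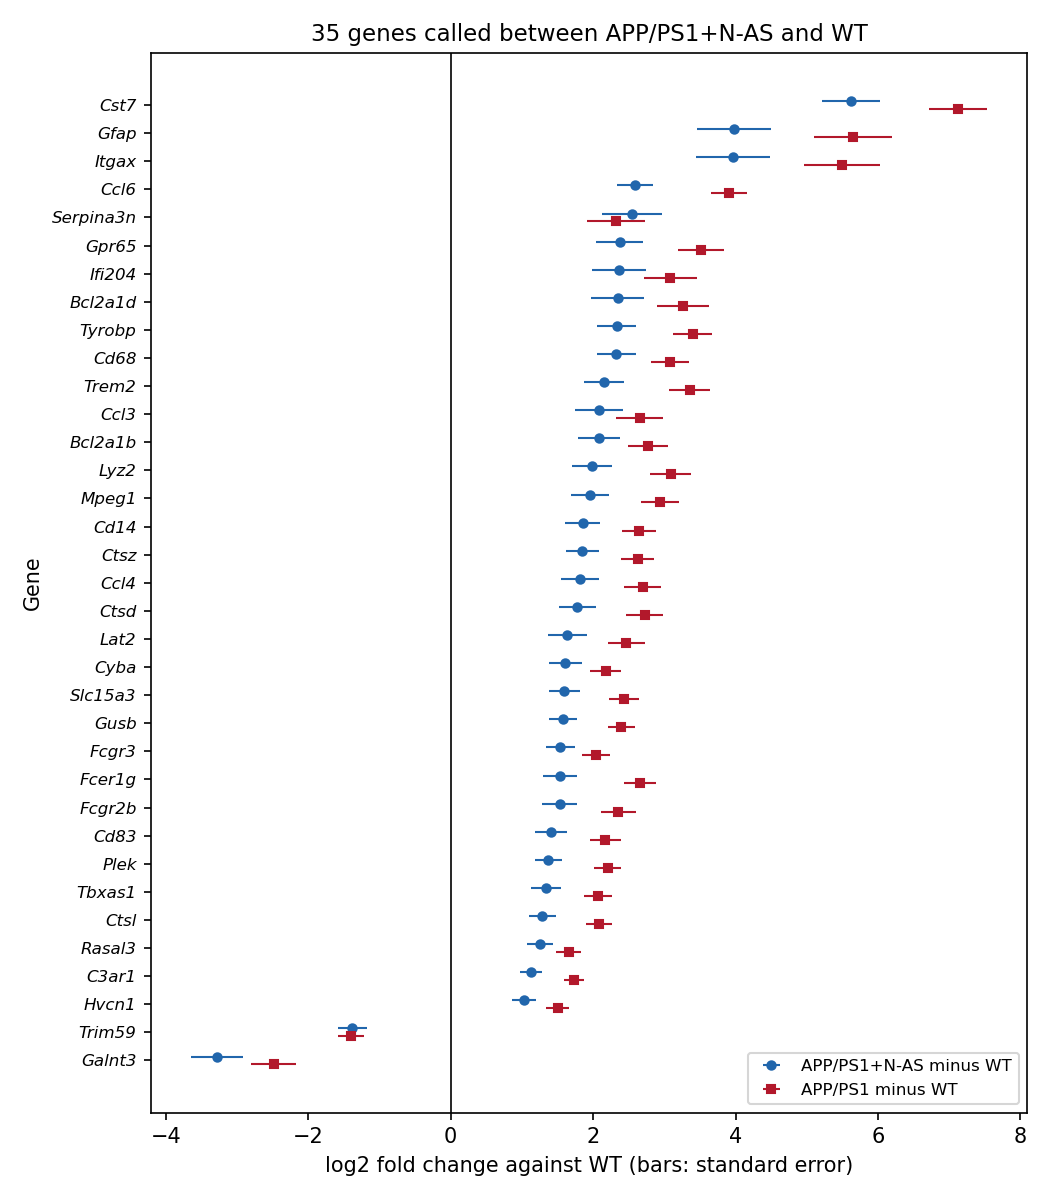
Log2 fold changes against WT with their SE as bars for the 35 called genes, in APP/PS1+N-AS (blue circles) and in untreated APP/PS1 (red squares). Values range from −3.28 for Galnt3 to 5.62 for Cst7 after N-AS, and among the 33 genes that rose Serpina3n is the 1 with a higher value after N-AS (2.55) than in untreated APP/PS1 (2.32).

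Position and promoter sequence were read for the 35 called genes. In the GENCODE M21 annotation, 7 of the 35 overlapped a tested gene on the opposite strand (among them Ctsz, Plek and Tbxas1) and 0 overlapped one on the same strand. Whether the counting used the strand of the reads is not stated. RefSeq promoters of 300 bases (GRCm38.p6, 250 before to 50 after the start) were matched for 25 of the 33 genes that rose and for both that fell. Both strands were searched for TCACGTGA, an E-box extended as in genes of the lysosomal network, and for GAGGAAGT, the core bound by the myeloid factor PU.1. TCACGTGA was found in 1 of 25 genes, and in 240 (1.78%) of the 13446 tested genes with a window. GAGGAAGT was found in 3 of 25 and in 494 (3.67%). With only 75.8% of the genes matched, the shares were not compared. The site in Gusb, the third gene with GAGGAAGT, does not lie wholly before the start and is not printed. The other sites with their flanks are printed by gene to give the bases themselves, with the motif in capitals, at chr7:142387909-142387936 (minus strand), chr9:89199115-89199142 (plus strand) and chr9:88731937-88731964 (minus strand).
Ctsd: cgcccgcgtcTCACGTGAcccgttgagg
Bcl2a1b: agaagaggaaGAGGAAGTggtgtgttgc
Bcl2a1d: tgaatcagaaGAGGAAGTggtgtgttgc
A match is a stretch of letters and not evidence of binding.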

How the data were processed

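RNA from microglia of 2 mice per library was sequenced by the authors as paired reads from ribosome-depleted stranded libraries, aligned with TopHat to mm10 and deposited as raw read counts per gene symbol for each library; versions are not stated, and neither is whether counting used strand. The deposited table lists 24481 lines and 24421 symbols, and the 103 lines that share 43 symbols were summed. Total counts of the 10 libraries were 8805804 to 19432075. The FPKM values and quantile normalization of the authors were not used. Groups and replicate numbers come from the labels, and ages and doses from the study's methods.

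All 10 libraries entered a model of 3 groups in edgeR 4.0.16 (R 4.3.3) with limma 3.58.1, using filterByExpr, TMM factors, estimateDisp, glmQLFit and glmQLFTest, with Benjamini-Hochberg adjustment over 18727 genes and 0.05 as the threshold. Dispersion was 0.0752 in common, or 27.4% as a coefficient of variation. CPM used TMM-scaled library sizes, and log2 CPM a prior count of 2. The steps were tested on simulated data. With 3 libraries a group, an exact two-sided permutation test of a single value cannot go below 0.1, so none is given.

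The 42 gene lists cover 21 programs, 3 sets of genes named by the study, 3 tissue states, 14 sets of cell type markers and the sex-linked genes. Members and lists were chosen with earlier results of these data known. Named were the study's genes, up to 12 called genes per direction by adjusted p, up to 6 by fold change, up to 4 called members of each list or its 2 most abundant members, leading cell type markers, App and sex-linked genes; some genes under this rule are not reported singly. Other called genes, and P2ry12, Tmem119 and Plac8, were named after their values were seen. Alternatives were DESeq2 1.42.0, limma-voom with quantile normalization, RLE, total-count and upper-quartile scaling, filters, library subsets, covariates, a replicate block and each library left out. Replicate numbers are not stated to mark shared handling: after removal of group means, same-numbered N-AS and WT libraries correlated with r of −0.14, 0.348 and 0.240 (mean 0.151, other pairs −0.0754), so the block is only an alternative. Positions come from GENCODE M21 and promoters from RefSeq GRCm38.p6.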

Additional observations from a re-analysis of the deposited data

How the results depend on the processing

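All 35 called genes kept their direction in every alternative, or 33 of 33 where only 33 were tested. Their number did not hold. DESeq2 called 188 genes (161 higher, 27 lower), including all 35. Quantile normalization with limma-voom gave 20 (18 higher, 2 lower). Other scalings and filters stayed between 29 and 45 genes. A block for the replicate number left 5 genes (4 higher, 1 lower). Library numbers as a covariate gave 64 (57 higher, 7 lower), the N-AS and WT libraries alone 2 (1 higher, 1 lower), library numbers 1 to 6 alone 437 (248 higher, 189 lower), the Y-linked level as a covariate 15 (14 higher, 1 lower) and unadjusted p 1261 (682 higher, 579 lower). Leaving out 1 library at a time gave 1 to 116 genes, 1 to 114 higher and 0 to 18 lower. Of 2 alternatives chosen after seeing the data, N-AS 3 alone gave 2 (2 higher, 0 lower) and the microglial marker mean as a covariate 0 (0 higher, 0 lower), with 589 genes at unadjusted p and a lowest adjusted p of 0.435. The cause was not tested.

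Signs turned only for genes that were not called. With 1 library left out, the log2 fold change of Appl2 ranged from −0.16 to 0.0229, the log2 fold change of Ccl2 from −0.23 to 0.28, the log2 fold change of Rap1gap from −0.0909 to 0.39, Mex3b from −0.12 to 0.25, the log2 fold change of Tub from −0.0461 to 0.15 and Atp7b from −0.47 to 0.47. Ccl2 was −0.0167 with upper-quartile scaling, −0.00651 in the N-AS and WT libraries alone, −0.29 in library numbers 1 to 6 and −0.0424 with the Y-linked covariate. Atp7b was 0.14 with limma-voom. N-AS 3 alone gave Appl2 0.0113, Rap1gap −0.30, Epor 0.36 and Xist −0.28. The marker covariate gave Appl2 0.14, Megf10 0.12, Cd74 −0.41, Mex3b −0.19, Atp7b 1.29, Fa2h 0.67 and Epor 0.67, and the log2 fold change of Csf1r was −0.0780. The cause was not tested.

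Where an arm was left with 1 library, it was assumed to vary like the other groups. With 3 libraries a group and a median SE of 0.25, small differences were not detectable, and genes near 1 CPM are the least precise. PCR copies were not marked, so counting alone understates the error. A missed threshold does not show that groups were alike.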
